A study of Homo sapiens with 4 samples.

Results

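Transcript uc001yhs.4, 1599 nt long, is 1 of the 78631 transcripts quantified in 4 RNA libraries of K562 cells. It was chosen by its read numbers, because both libraries labelled KD lie below both labelled VC, so its difference between the groups is described here and not tested. K562 cells come from a human chronic myeloid leukaemia and depend on BCR-ABL1, the fusion kinase that the drug imatinib inhibits. All 4 samples are labelled as imatinib resistant and, under genotype, as treated with IM, an abbreviation that the labels leave unexplained. The 2 VC and 2 KD samples differ in their titles only, which name PLAG1 in all 4. PLAG1 is a zinc finger transcription factor, KD is commonly short for knockdown, and VC is left unexplained. How PLAG1 was targeted, and whether the cells were 1 clone, a pool or separate cultures, is not given in the sources used here, so the spread between libraries of a group may be technical.

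The name DLK1 is attached to uc001yhs.4 by its identifier alone and remains a probable label. None of the 21 identifiers in the stretch of rows examined around it matched a gene name in the reference tables at hand, where 3 of all 78631 did. The length did not settle the name. GENCODE release 29 lists 6 transcripts of DLK1, from 469 to 4722 nt, none of them 1599 nt long, and 41 transcripts of other genes with exactly that length. The identifiers here are not those of GENCODE, so lengths need not match even where the gene is the same. The values below are therefore those of the identifier, and no sequence is shown for it. As background to the label, DLK1 encodes a membrane protein with EGF-like repeats that is related to the ligands of Notch receptors and is best known for holding back the maturation of fat cell precursors. It lies in an imprinted domain of chromosome 14, where the paternal copy is the active one. It is among the genes that have been reported as targets of PLAG1. Without gene names, PLAG1 itself, the markers of K562 cells and the other genes of the imprinted domain and of the Notch pathway were not analysed here.

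The 4 libraries held between 16450627 and 20613436 estimated reads. In VC 2, uc001yhs.4 was among the more abundant RNAs, and in KD 1 it was a minor one. It received 1493.34 reads in VC 1, 11216.4 in VC 2, 63 in KD 1 and 593.839 in KD 2. In CPM, which puts libraries of unequal depth on 1 scale, this was 84.7 in VC 1, 549 in VC 2, 3.81 in KD 1 and 29.7 in KD 2. Both VC libraries were above both KD libraries, and the groups did not overlap. Of 35776 transcripts with enough reads to be tested, 15.6% also had both KD libraries below both VC libraries, a pattern that is thus common in these data.

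Per length the order was the same. The TPM of uc001yhs.4, which divides reads by transcript length, was 37.6 in VC 1, 266 in VC 2, 1.96 in KD 1 and 13.8 in KD 2. Its TPM ranked at place 207 among 44290 transcripts with a TPM above 0 in VC 2, and at place 1209 of 42645 in VC 1. The rank was 3637 of 43926 in KD 2 and 15411 of 42582 in KD 1. The effective length, by which reads are divided for TPM, falls short of the full length. For uc001yhs.4 this shortfall was 11 nt more than the median over transcripts of at least 1000 nt in each of the 4 libraries.

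The steps between libraries of the same group were larger than the smallest step between the groups. VC 2 was 6.49 times VC 1, and KD 2 was 7.80 times KD 1 in CPM. VC 1, the lower VC library, was 2.85 times KD 2, the higher KD library. The other comparisons between groups gave 18.5-fold for VC 2 over KD 2, 22.2-fold for VC 1 over KD 1 and 144-fold for VC 2 over KD 1. Counting error is small beside these steps. The exact 95% Poisson intervals, which cover counting error only, were 80.4 to 89.1 CPM in VC 1, 539 to 559 in VC 2, 2.93 to 4.88 in KD 1 and 27.4 to 32.2 in KD 2. None of the 4 intervals overlapped another.

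**Figure D1:**
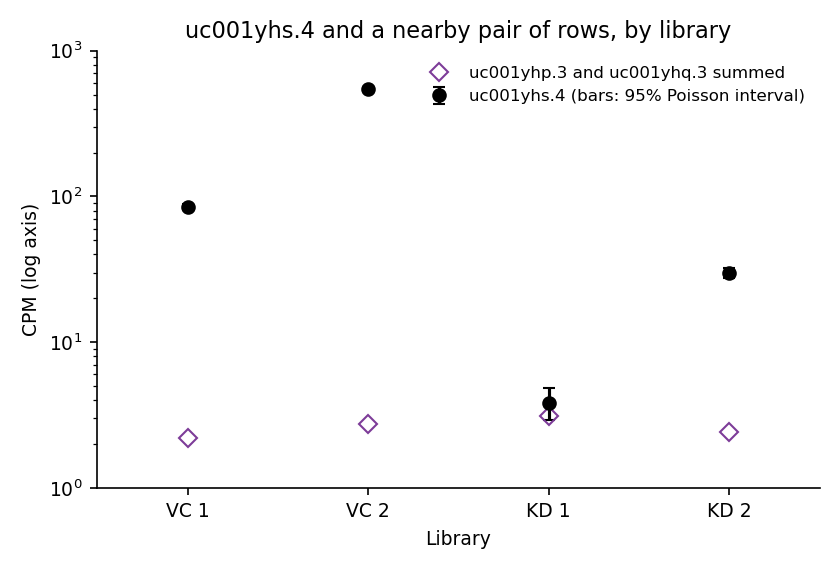
CPM on a log axis of uc001yhs.4 (filled circles, with exact 95% Poisson intervals of the reads) and of the nearby rows uc001yhp.3 and uc001yhq.3 summed (open diamonds) in each of the 4 libraries. The circles run from 3.81 CPM in KD 1 to 549 in VC 2, with VC 1 and KD 2 nearer to each other than to the second library of their own group, while the diamonds lie between 2.21 and 3.09.

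The mean of uc001yhs.4 was 317 ± 328 CPM in VC and 16.8 ± 18.3 CPM in KD (SD, n = 2 each), a ratio of means of 18.9. On the TPM scale the mean was 152 ± 161 in VC against 7.89 ± 8.38 in KD (SD, n = 2 each). Each SD was about as large as its mean. On the log2 CPM scale the mean was 7.75 ± 1.91 in VC against 3.44 ± 2.07 in KD (SD, n = 2 each). The log2 fold change of the transcript fitted by edgeR was -4.23, and limma-voom gave -4.28 (SE 1.499). Every library weighed on that size. The fitted ratio of VC to KD, 18.8 with all libraries, was 32.4 without VC 1, 5.02 without VC 2, 10.6 without KD 1 and 82.7 without KD 2. Less of the RNA per cell and fewer cells that make it cannot be told apart in RNA from whole cultures.

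No transcript in the table passed the test between the groups, so calls give no scale for this one. edgeR's quasi-likelihood test called 0 of 35776 transcripts, or 0%, at a Benjamini-Hochberg adjusted p below 0.05, and 1399 had an unadjusted p below 0.05. limma-voom also called 0, and DESeq2 called 345.

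Among transcripts of similar abundance, uc001yhs.4 had the lowest fitted change. The 526 others with a mean over the 4 libraries near its own 167 CPM, from 133 to 209 CPM, had fitted log2 fold changes from -1.87 to 0.91, with a median of 0.02 and an interquartile range from -0.10 to 0.16. None of the 526 reached -4.23 (0%), a share that describes the change by which uc001yhs.4 was chosen and is no test of it. The nearest to it in this range was uc001jsx.1, 1752 nt, with 528 CPM in VC 1, 111 in VC 2, 68.3 in KD 1 and 106 in KD 2. In that transcript VC 1 stood above the other 3 libraries, which is another pattern than that of uc001yhs.4. A change of 2-fold or more toward lower KD was fitted for 4 of the 526 and for 9.64% of all tested transcripts. The mean of uc001yhs.4 is set largely by VC 2, so this group of transcripts matches its level over all libraries and not its level in KD.

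**Figure D2:**
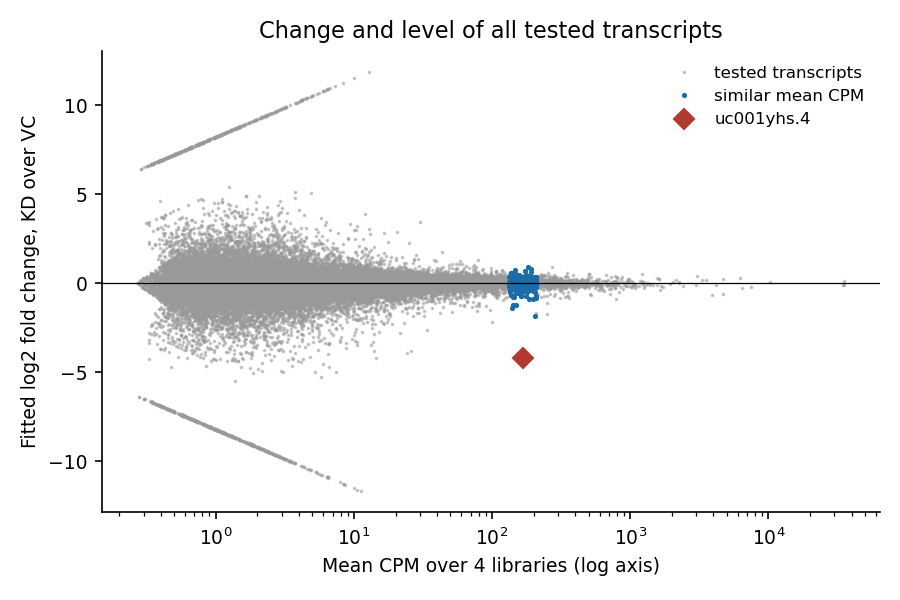
Fitted log2 fold change of KD over VC against mean CPM over the 4 libraries (log axis) for the 35776 tested transcripts (grey), the 526 with a mean of 133 to 209 CPM (blue) and uc001yhs.4 (red diamond). The diamond lies at -4.23, below all blue points, which end at -1.87, and the 2 oblique grey lines hold transcripts with 0 reads in 1 group.

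Over the whole table, 472 transcripts had a lower fitted change than uc001yhs.4. Of these, 435 had 0 reads in both KD libraries, and the most abundant of the 472 had a mean of 11.2 CPM against 167 for uc001yhs.4. At a mean of at least 50 CPM, uc001yhs.4 had the largest fitted change in either direction among 3858 transcripts. These ranks use the contrast by which it was chosen and describe it only.

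The spread within groups was also wider than in the transcripts of similar abundance. It was not the rule of that choice but comes from the same values. The gap between VC 1 and VC 2 was 2.70 in log2 CPM for uc001yhs.4, where the median of the 526 was 0.27 and their largest was 2.25. The gap between KD 1 and KD 2 was 2.93, where the median of the 526 was 0.17 and their largest was 2.69. Thus no transcript of similar mean level had as wide a gap in either group. The 526 are matched on mean level and not on the level in KD. The biological coefficient of variation that edgeR assigned to uc001yhs.4 was 0.837, with a median of 0.176 and a maximum of 0.737 among the 526. Over the 16936 transcripts of at least 5 CPM, 385 others had as wide a gap in VC, 332 in KD and 90 in both.

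**Figure D3:**
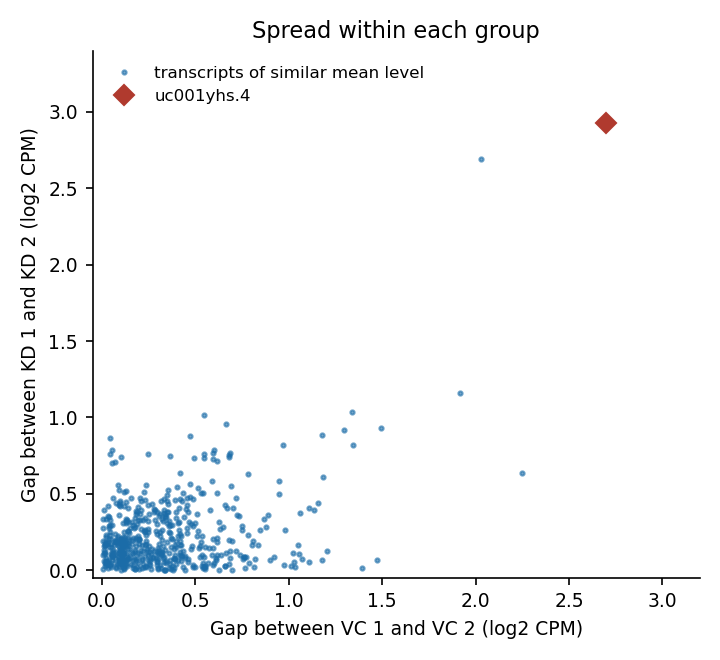
Gap in log2 CPM between the 2 VC libraries (horizontal axis) and between the 2 KD libraries (vertical axis) for 526 transcripts of similar mean level (blue) and uc001yhs.4 (red diamond). The diamond lies at 2.70 and 2.93, above and to the right of all blue points, whose medians are 0.27 and 0.17.

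The order of the libraries, VC 2 above VC 1 above KD 2 above KD 1, was not that of depth or fragment length. VC 2 and KD 2 were the most deeply read libraries, with 20613436 and 19997430 reads, followed by VC 1 with 17833366 and KD 1 with 16450627. Within each group the library with more of uc001yhs.4 was thus the more deeply read one, and a link to depth was not tested. The usual difference between length and effective length of transcripts of at least 1000 nt, which follows the fragment length, was 226 nt in VC 1, 246 in KD 2, 250 in VC 2 and 265 in KD 1. The same order of libraries as in uc001yhs.4 was found in 17 of the 526 transcripts (3.23%) and in 600 of the other 16935 with at least 5 CPM (3.54%). None of these 600 had gaps of 4-fold or more in both groups.

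The next question was whether neighbouring rows of the tables moved with uc001yhs.4 or took up the reads it lacked in KD. Transcripts of 1 gene can share sequence, and Salmon, the program behind the tables, divides a read that matches several of them. Neighbours here are rows by their place in the tables, and the files do not say how they lie in the genome. Of the 10 rows before and 10 after, 10 had no read in any library, and no row exceeded 3.53 CPM in any library.

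The row just before, uc001yhu.4, 1368 nt, was ordered like uc001yhs.4. It had 34.7 reads in VC 1, 71.9 in VC 2, 0 in KD 1, which allows up to 3 reads, and 5.16 in KD 2. Its KD libraries lay below its VC libraries, at 0.125 ± 0.177 CPM against 2.76 ± 1.09 (SD, n = 2 each). Its fitted log2 fold change was -4.35 (limma-voom 95% interval -12.4 to 2.65), with an edgeR adjusted p of 1.00. The row just after, uc021sbs.1, 330 nt, had 6.73 reads in VC 2 and none in the other libraries.

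Reads were shared between these rows and uc001yhs.4. The fractional reads of uc001yhu.4, uc001yhs.4 and uc021sbs.1 added up to whole numbers within 0.001 reads in every library, as they do when reads are divided among these rows alone. The sums were 1528 reads in VC 1, 11295 in VC 2, 63 in KD 1 and 599 in KD 2. Within these sums uc001yhs.4 held 97.7% in VC 1, 99.3% in VC 2, 100% in KD 1 and 99.1% in KD 2. As 1 feature the 3 rows had 320 ± 330 CPM in VC and 16.9 ± 18.5 CPM in KD (SD, n = 2 each), a ratio of means of 18.9, the same as for uc001yhs.4 alone. Since uc001yhu.4 shares reads with uc001yhs.4, its like order is no separate observation.

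A nearby pair of rows with reads of its own did not follow as a sum. uc001yhp.3, 2707 nt, and uc001yhq.3, 2689 nt, which lie 5 and 3 rows before uc001yhs.4, also had fractional reads that added up to whole numbers. Together they had 39 reads in VC 1, 56 in VC 2, 51 in KD 1 and 48 in KD 2. That was 2.48 ± 0.375 CPM in VC and 2.75 ± 0.484 CPM in KD (SD, n = 2 each; exact two-sided permutation p = 0.667), a difference within the spread of the libraries. The smallest p that 2 against 2 libraries allow is 0.33, so this test could not have called a difference. By itself uc001yhq.3 had a fitted log2 fold change of 0.69 (limma-voom 95% interval -0.71 to 2.01; edgeR adjusted p 1.00). uc001yhp.3 by itself was ordered like uc001yhs.4, with 8.76 and 26.2 reads in VC 1 and VC 2 and 0 and 7.48 in KD 1 and KD 2. It was read too little to be tested, and its reads are those divided with uc001yhq.3, which was higher in both KD libraries.

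Farther off, the first rows of the window had few reads. uc021sbq.1, 908 nt, had 38.6 and 22.1 reads in VC 1 and VC 2, and 4.05 and 0 in KD 1 and KD 2. Its groups did not overlap either, but its order within VC was the reverse of that of uc001yhs.4. Its fitted log2 fold change was -3.72 (limma-voom 95% interval -11.7 to 3.33; edgeR adjusted p 1.00). uc001yhn.3, 2121 nt, had 5.29 and 38.9 reads in VC 1 and VC 2 and 0 and 31.8 in KD 1 and KD 2, so its groups overlapped. Its fitted log2 fold change was -0.45 (limma-voom 95% interval -8.61 to 5.30; edgeR adjusted p 1.00). uc001yho.3, 1227 nt, was read only in KD 1, with 23.4 reads. The fractional reads of uc021sbq.1, uc001yhn.3, uc010avy.3 and uc001yho.3 added up to whole numbers with those of uc010avx.3, a row farther before. Reads are thus divided among these rows, and the order of any 1 of them is no separate observation. uc010avx.3 itself had a fitted log2 fold change of 0.20 (limma-voom 95% interval -0.68 to 1.14). Of the 4 neighbours with enough reads to be tested, none was called, and 2 had a fitted change of 2-fold or more toward lower KD. These were uc001yhu.4, which shares reads with uc001yhs.4, and uc021sbq.1, which divides reads with other rows. Over all tested transcripts 9.64% had such a change and 0% were called, and 4 neighbours are too few to set against that share.

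On the side after uc001yhs.4 the tables were nearly empty. Of the 10 rows there, 7 had no read in any library and none had more than 7 reads. uc021sbw.2, 9689 nt, had 3.25 and 3 reads in VC 1 and VC 2, and 5 and 7 in KD 1 and KD 2. The following 10 rows, looked at after these values were seen, had no read in any library. uc021sbw.2 was thus higher in both KD libraries, but on 7 reads at most. The lower level of uc001yhs.4 in KD had no counterpart of similar size on this side.

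**Figure D4:**
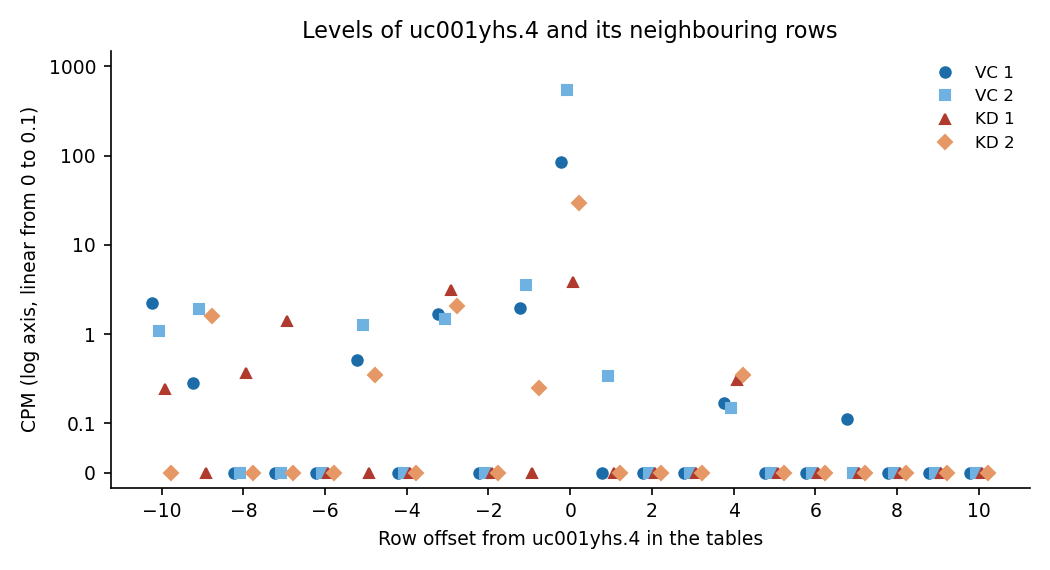
CPM (log axis, linear from 0 to 0.1) of uc001yhs.4 at offset 0 and of the 10 rows before and 10 after it in the tables, with 1 symbol per library. uc001yhs.4 spans 3.81 to 549 CPM, no other row exceeds 3.53 CPM, and 10 of the 20 lie at 0 in all 4 libraries.

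Summed, the 20 neighbours had 6.97 CPM in VC 1, 9.74 in VC 2, 5.39 in KD 1 and 4.61 in KD 2. The mean was 8.36 ± 1.96 CPM in VC and 4.998 ± 0.554 CPM in KD (SD, n = 2 each; exact two-sided permutation p = 0.33, the smallest that 2 against 2 libraries allow). Without the 2 rows that share reads with uc001yhs.4, the other 18 had 5.43 ± 0.627 CPM in VC and 4.87 ± 0.731 CPM in KD (SD, n = 2 each; exact two-sided permutation p = 0.667). From VC to KD the neighbours changed by -3.36 CPM, against -300.2 CPM for uc001yhs.4. Given as an offset, which is positive where neighbours move the other way, this is -1.12% of its change, so the neighbours together offset none of it. Without the 2 rows that share reads the value was -0.187%. Of the reads in the whole stretch of 21 rows, uc001yhs.4 held 92.4% in VC 1, 98.3% in VC 2, 86.6% in KD 2 and 41.4% in KD 1.

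More abundant rows lie 11 to 20 places before uc001yhs.4, and none of the 7 that were tested had its order of libraries. The most read of them was uc001yhh.1, 2884 nt, with 328 CPM in VC 1, 86.8 in VC 2, 55.4 in KD 1 and 124 in KD 2. VC 1 was its highest library and its groups overlapped. Its fitted log2 fold change was -1.21 (limma-voom 95% interval -2.72 to 0.78; edgeR adjusted p 1.00). The second most read was uc001yhl.1, 2660 nt, with 159 CPM in VC 1, 114 in VC 2, 103 in KD 1 and 72.1 in KD 2. Its KD libraries lay below its VC libraries, with a fitted log2 fold change of -0.64 (limma-voom 95% interval -1.28 to -0.01; edgeR adjusted p 1.00). uc010twz.1, 1177 nt, had 10.8 CPM in VC 1, 4.06 in VC 2, 1.09 in KD 1 and 2.40 in KD 2, again with no overlap. In all, both KD libraries lay below both VC libraries in 3 of the 7, where 15.6% of all tested transcripts had this pattern. The remaining one, uc001yhg.2, separated narrowly, with 1.66 CPM in VC 2 against 1.65 in KD 2. A fitted change of 2-fold or more toward lower KD was also found in 3 of the 7, against 9.64% of all tested transcripts, and none of the 7 was called. All 7 had fractional reads, divided with other rows, so they are not 7 separate observations. They are also too few to set against either share.

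The transcripts whose pattern over the 4 libraries was most like that of uc001yhs.4 were far from it in the tables and much less abundant. Likeness was measured over the 4 libraries as the Euclidean distance between log2 CPM profiles, each centred on its mean, among the other 16935 transcripts of at least 5 CPM. The nearest was uc011div.3, 5612 nt, at a distance of 1.03, with 5.95 CPM in VC 1, 19.3 in VC 2, 0 in KD 1 and 0.951 in KD 2. The second was uc002lfr.3, 7003 nt, at a distance of 1.08, with 14.5 CPM in VC 1, 37.7 in VC 2, 0.545 in KD 1 and 3.15 in KD 2. Both had the same order of libraries as uc001yhs.4, which a search by profile favours, with a narrower gap in VC, of 3.25-fold and 2.59-fold. On the TPM scale they were lower still, at 2.34 and 3.61 in VC 2 against 266 for uc001yhs.4. The median distance over all transcripts compared was 5.19. With 4 libraries, profiles of this kind say nothing of a shared function or control.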

How the data were processed

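RNA of 4 samples was sequenced from 200 ng of total RNA each, per the labels' protocols. Per the submitters' processing notes the authors used Salmon 0.8.1 and build hg19. The index, strand setting and read length were not given in the sources used here. Per the file headers, the deposited tables give each transcript's length, effective length, TPM and estimated count of reads, which need not be whole. The deposited TPM values were used as they are.

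Estimated counts were rounded. With edgeR 4.0.16 (R 4.3.3) transcripts were kept by its expression filter (minimum count 10, minimum total 15), scaled by TMM and fitted with robust quasi-likelihood on group alone. Adjusted p-values are Benjamini-Hochberg over all 35776 tested transcripts, with a threshold of 0.05, two-sided. CPM uses TMM-scaled library sizes, and log2 CPM a prior count of 2. Intervals and the SE come from limma-voom (limma 3.58.1). DESeq2 1.42.0, other scalings, filters, windows, limma on log2(TPM + 1) and on log2(TPM + 0.1), a replicate block and leaving out each library were the alternatives. A count of 0 allows up to 3 reads. Groups and replicate numbers come from the titles. The fit was tested on simulated data whose biological coefficient of variation was below the median of 0.176 of the 526 transcripts of similar level. That test therefore does not tell how many changes the fit would find in these data.

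uc001yhs.4, the comparisons and the gene lists were chosen with earlier results of these data known. Named transcripts are uc001yhs.4, neighbours that were tested or had at least 10 reads in a library, and the 2 with the most alike pattern. Named outside that rule, after their values were seen, are uc001jsx.1, uc001yhh.1, uc001yhl.1, uc010twz.1, uc021sbs.1 and uc021sbw.2. The sums to whole numbers were also examined only after the reads were seen. The lists of PLAG1 genes, the imprinted domain, the Notch pathway and K562 markers rest on gene names and are not analysed here.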

Additional observations from a re-analysis of the deposited data

How the results depend on the processing

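uc001yhs.4 was chosen for lying lower in KD, so the direction of its fitted log2 fold change was all but fixed. That fold change kept its direction under all 16 alternatives tried. It lay between -6.37 (without KD 2) and -2.33 (without VC 2) when 1 library was left out, a fit that takes a single library to vary as much as the remaining pair, and between -4.33 and -3.94 under the others. The number of called transcripts was 0 under 13 of 14 alternatives and 345 with DESeq2. With the replicate number as a block the log2 fold change of uc001yhs.4 was -4.33, that of the summed neighbours -0.73, and 0 transcripts were called. No label pairs the samples. The KD libraries are 1 and 2 by title but 2 and 3 by file name, so the block rests on the titles alone. The deviations of same-numbered libraries from their group means correlated at -0.01 over all tested transcripts and at -0.13 over those of at least 50 CPM. In uc001yhs.4 itself they were alike, at -1.35 in VC 1 and -1.46 in KD 1 in log2 CPM. Whether same-numbered samples belong together was not tested. The log2 ratio of the summed neighbours stayed negative in all 13 alternatives, from -4.55 with 2 rows on each side to -0.16 without the rows that share reads. With 2 rows on each side, all reads are those of uc001yhu.4 and uc021sbs.1. These rows share reads with uc001yhs.4, so -4.55 is no separate observation. The offset by neighbours stayed negative as well. It ranged from -2.90% to -0.889% with 1 library left out, was -0.187% without the rows that share reads, and was -60.6% with 20 rows on each side, where the window takes in the abundant rows 11 to 20 places before uc001yhs.4. The share of transcripts of similar level with as low a fitted change was 0 in 8 of 9 alternatives and 0.198% without VC 2. Depth limits the neighbours and not uc001yhs.4: 3 reads, the limit that a count of 0 allows, correspond to 0.147 to 0.182 CPM.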
